A study of Homo sapiens with 6 samples.

Results

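The 6 genes of type IV collagen, COL4A1 to COL4A6, were followed by name through a table of 33392 genes measured by RNA sequencing in 6 libraries of HK-2 cells, an immortalised line from the human kidney proximal tubule. All cells received TGF-β1, a cytokine that drives matrix production, and carry a 48 h label. Of these libraries 3 were from cells with an siRNA against the protein kinase DYRK2 (siDYRK2) and 3 from cells with a scramble siRNA, and no group without TGF-β1 was analysed here. The study asks how DYRK2 acts in renal fibrosis, and the siRNA sequence is not among the labels. The labels do not say whether replicates were cultured separately, and the spread behind each p-value may therefore be technical.

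Type IV collagen forms the sheet-like network of basement membranes. Each molecule is a triple helix of α chains, and the globular ends of neighbouring molecules join and are cross-linked to build the network. COL4A1 and COL4A2 encode the chains of the network found in nearly all basement membranes. COL4A3, COL4A4 and COL4A5 encode those of the network in the mature glomerular basement membrane and in some tubular segments, and inherited loss of any of them causes Alport syndrome. COL4A5 and COL4A6 chains assemble in Bowman's capsule, skin and smooth muscle. The 6 genes lie as head-to-head pairs, so that the partners of a pair are transcribed in opposite directions from a common stretch of DNA.

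The start sites of a pair lie close together in RefSeq on GRCh38.p14, taking the start given for each gene in its promoter table and, for COL4A6, the one nearer to COL4A5. COL4A1 (minus strand) and COL4A2 (plus strand) on chromosome 13 start 126 bases apart, COL4A4 (minus strand) and COL4A3 (plus strand) on chromosome 2 start 418 bases apart, and COL4A6 (minus strand) and COL4A5 (plus strand) on the X chromosome start 379 bases apart. Other transcripts start elsewhere, and between the outer ends of the COL4A4 and COL4A3 genes in RefSeq only 135 bases remain. The stretch between the starts of the first pair and the 250 bases before each start site of the second pair are shown, because these are the pairs whose transcripts were measurable. Where transcription started in these cells was not measured. The first is chr13:110307158-110307283 on the plus strand, the second chr2:227164374-227164623 on the plus strand, and the third chr2:227164206-227164455 on the minus strand. Capitals mark the motifs searched on both strands, which did not overlap one another.
COL4A1/COL4A2 intergenic: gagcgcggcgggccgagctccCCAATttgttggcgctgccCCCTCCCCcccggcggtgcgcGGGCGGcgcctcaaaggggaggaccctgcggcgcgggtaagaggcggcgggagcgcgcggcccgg
COL4A3 upstream: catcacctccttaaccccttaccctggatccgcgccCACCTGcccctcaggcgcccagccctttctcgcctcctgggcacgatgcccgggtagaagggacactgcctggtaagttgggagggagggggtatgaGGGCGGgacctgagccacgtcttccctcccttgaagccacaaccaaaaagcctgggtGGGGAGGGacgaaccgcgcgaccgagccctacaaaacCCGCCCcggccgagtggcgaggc
COL4A4 upstream: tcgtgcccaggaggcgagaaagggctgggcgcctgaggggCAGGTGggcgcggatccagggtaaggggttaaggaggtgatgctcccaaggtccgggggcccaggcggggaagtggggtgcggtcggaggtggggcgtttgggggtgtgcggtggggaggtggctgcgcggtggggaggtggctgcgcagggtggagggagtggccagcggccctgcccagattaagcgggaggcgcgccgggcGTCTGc
The stretch between COL4A1 and COL4A2 has 80.2% G or C and holds 1 CCAAT box (CCAAT), 1 GC box (GGGCGG) and 1 CTC box (CCCTCCCC), the last a pyrimidine-rich element of the kind described in this promoter. Of 35116 RefSeq promoters 32.0% have a CCAAT box, 42.6% a GC box and 12.7% a CTC box in the 250 bases before the start. The COL4A3 window holds 2 GC boxes and 1 CTC box, whereas the COL4A4 window holds neither. Both windows hold 1 E-box of the type bound by SNAI2 (CAGGTG, in 17.5% of promoters). It is the same site, chr2:227164410-227164415, because the windows overlap. The COL4A4 window also holds 1 SMAD box (CAGAC, in 38.0% of promoters), and a TATA box (TATAAA, in 10.7%) is in none of the windows of the 6 genes. These matches describe letters, and binding was not measured.

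The kinase targeted by the siRNA, DYRK2 (ENSG00000127334), lies on chromosome 12 at 67648338 to 67665406 in GRCh38. It had 1.45, 1.54 and 1.49 FPKM in the siDYRK2 libraries, against 5.84, 6.06 and 5.96 FPKM in the scramble libraries, so every silenced library was lower. FPKM counts fragments scaled to transcript length and to the mapped fragments of the library, so levels of different genes are given per length. Log2 fold changes are siDYRK2 minus scramble throughout, after a pseudocount of 0.5 FPKM. For DYRK2 the change was −1.69 with SE 0.0513 and a limma adjusted p of 2.0e-06. An exact permutation over the libraries (two-sided) returned p = 0.1, which is as small as a design with 3 libraries a group can give.

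The summed FPKM of a library lay between 252318 and 255378 and sequencing depth is unknown. No 2 columns were identical, and across genes, taken as a description since genes are not independent, Pearson's r was 0.989 to 0.991 for pairs of the same group and 0.974 to 0.976 for pairs of different groups. The labelled cell type was checked against marker lists. All 8 epithelial markers were tested, of which 1 was called higher and 4 lower. Over all tested genes 20.4% were called higher and 17.9% lower. KRT7 was the one called higher, at 542 ± 17.4 FPKM with siDYRK2 and 382 ± 4.13 FPKM with scramble siRNA (SD, n = 3 each). Called lower were CDH1, which encodes E-cadherin (mean 1.17 FPKM with siDYRK2 and 2.97 FPKM with scramble siRNA), CLDN4 (2.68 FPKM with siDYRK2 and 4.87 FPKM with scramble siRNA), KRT18 (87.3 FPKM with siDYRK2 and 123 FPKM with scramble siRNA) and KRT19 (97.6 FPKM with siDYRK2 and 158 FPKM with scramble siRNA). Of the 16 proximal tubule markers 13 had a row, and 10 of these never exceeded 0.5 FPKM in any library, among them HNF4A and the phosphate transporter SLC34A1, each at no more than 0.02 FPKM. Their sum was 4.50 to 4.85 FPKM in siDYRK2 libraries and 5.53 to 6.06 FPKM in scramble libraries, so these cells carry little of the labelled tissue's marker set. Of 10 lung epithelial markers 7 had a row and 3 were tested, with 0 called higher and 2 lower. The lung and thyroid factor NKX2-1 stood at 23.1 to 24.0 FPKM in siDYRK2 libraries and 25.5 to 27.3 FPKM in scramble libraries. It was called lower (limma adjusted p = 0.0081). NAPSA was also called lower, with a mean of 1.24 FPKM with siDYRK2 and 1.98 FPKM with scramble siRNA (limma adjusted p = 0.0074). Members of this list other than NKX2-1 were lower in level. Among the surfactant genes SFTPB lay between 3.10 and 4.93 FPKM, while SFTPD did not exceed 0.34 FPKM and SFTPC 0.06 FPKM. SLC34A2, under the filter, was higher with siDYRK2, at 0.52 to 0.70 FPKM, against 0.22 to 0.33 FPKM with scramble siRNA.

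COL4A1 and COL4A2, the chains of the widespread network, were both higher after DYRK2 silencing, and no chain passed the test for a decrease. COL4A3 was the only one of the 6 whose siDYRK2 values all lay below the scramble values, but it was under the expression filter. COL4A4 overlapped between the groups, and COL4A5 and COL4A6 were at or near 0. Of the 6 chains 3 had a mean of at least 0.5 FPKM over the 6 libraries and were tested with limma in a fit over all 15121 genes past that filter, with Benjamini-Hochberg adjustment at 0.05. Of these, 2 were higher and 0 lower. Over all tested genes 38.3% were called, 20.4% higher and 17.9% lower, so that calls in this comparison are common.

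COL4A1 (ENSG00000187498; GRCh38 chromosome 13, 110148963 to 110307233, minus strand, 52 exons in its principal transcript) encodes the α1 chain. It had 5.83, 5.72 and 5.59 FPKM in the siDYRK2 libraries, against 1.90, 2.12 and 2.09 FPKM in the scramble libraries. The groups were far apart, with every siDYRK2 library above every scramble library. The means were 5.71 ± 0.120 FPKM with siDYRK2 and 2.04 ± 0.119 FPKM with scramble siRNA (SD, n = 3 each), a 2.81-fold difference. The log2 fold change was 1.29 (SE 0.0561, 95% confidence interval 1.16 to 1.42, limma adjusted p = 9.1e-06). In bulk RNA a difference in the number of cells of a kind and one in RNA per cell cannot be told apart. COL4A1 ranked 35 from the top among the 15121 tested genes.

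COL4A2 (ENSG00000134871; chromosome 13, 110305812 to 110513209, plus strand, 48 exons), which encodes the α2 chain, was the most abundant of the 6 transcripts in every library. Its values were 9.89, 9.52 and 9.96 FPKM in the siDYRK2 libraries and 5.24, 5.82 and 5.75 FPKM in the scramble libraries. All siDYRK2 libraries lay above all scramble libraries here too. The means were 9.79 ± 0.236 FPKM with siDYRK2 and 5.60 ± 0.317 FPKM with scramble siRNA (SD, n = 3 each), a 1.75-fold difference. The log2 fold change was 0.75 (SE 0.0505, 95% confidence interval 0.64 to 0.87, limma adjusted p = 5.9e-05), and it ranked 173 from the top. Groups that do not overlap, were found with siDYRK2 higher for 27.4% and with siDYRK2 lower for 24.3% of all tested genes.

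The GENCODE spans of COL4A1 and COL4A2 share 1422 bases around their starts, so reads there cannot be assigned without strand, and no label states whether strand was used. Other cell types that make these chains were looked for by their markers. Of the 6 endothelial markers with a row none exceeded 0.5 FPKM, and their sum was 0.10 to 0.18 FPKM in siDYRK2 libraries and 0.08 to 0.11 FPKM in scramble libraries. PECAM1 and VWF were at or near 0 in both groups. TEK, under the filter and not tested, was higher with siDYRK2. It stood at 0.05 to 0.11 FPKM, against 0.02 FPKM in every scramble library. The 7 fibroblast and mesangial markers with a row summed to 0.64 to 0.82 FPKM in siDYRK2 libraries and 0.37 to 0.42 FPKM in scramble libraries. Most of that sum was COL1A1, at 0.52 to 0.63 FPKM with siDYRK2 and 0.33 to 0.37 FPKM with scramble siRNA, while PDGFRA, DCN and ITGA8 did not exceed 0.02 FPKM.

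**Figure D1:**
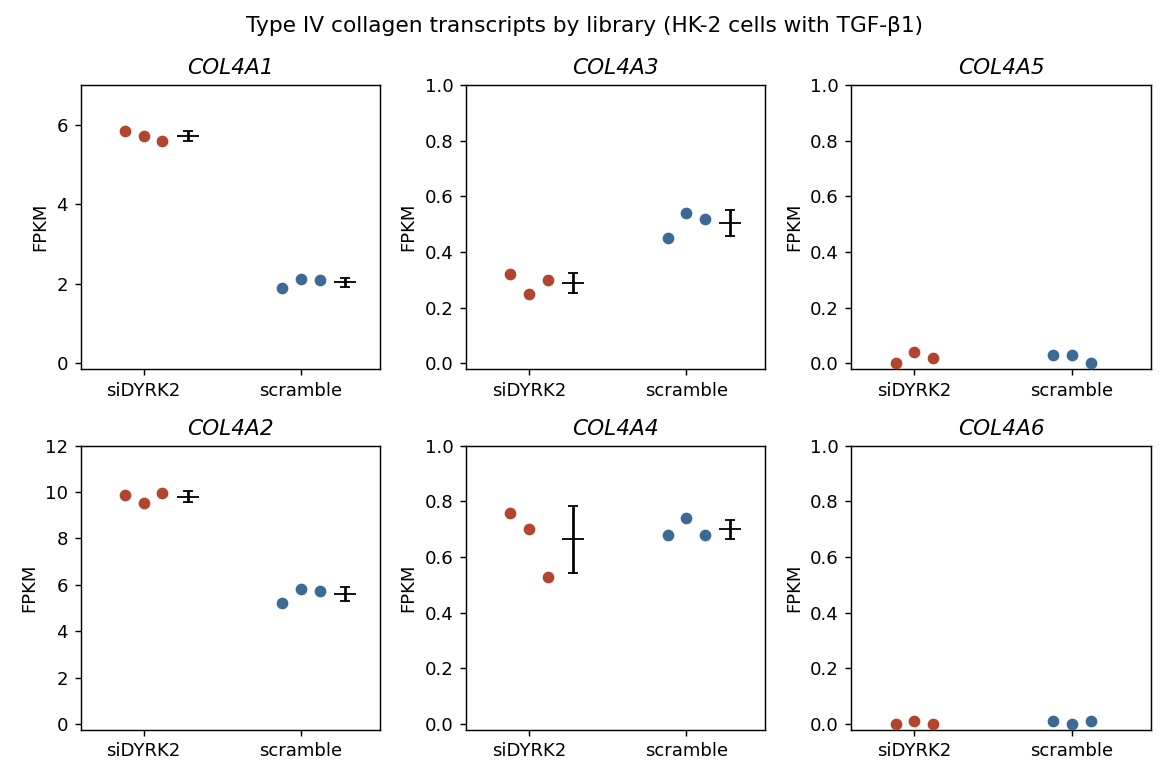
FPKM of each type IV collagen gene in every library, with siDYRK2 libraries in red on the left and scramble libraries in blue on the right; black marks are the mean and SD of 3 libraries, left out for COL4A5 and COL4A6. COL4A1 and COL4A2 sit higher in all siDYRK2 libraries, COL4A3 sits lower, at 0.25 to 0.32 FPKM with siDYRK2 and 0.45 to 0.54 FPKM with scramble siRNA, and COL4A4 overlaps.

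COL4A3 (ENSG00000169031; chromosome 2, 227164565 to 227314792, plus strand, 52 exons) encodes the α3 chain, whose globular end is the autoantigen of Goodpasture disease. It had 0.32, 0.25 and 0.30 FPKM in the siDYRK2 libraries and 0.45, 0.54 and 0.52 FPKM in the scramble libraries. The siDYRK2 values were all below the scramble values, a pattern found for 13.7% of the 2382 genes with a mean between 0.25 and 0.5 FPKM. The siDYRK2 mean of 0.290 ± 0.0361 FPKM was 57.6% of the scramble mean of 0.503 ± 0.0473 FPKM (SD, n = 3 each). With a mean of 0.397 FPKM it was not tested in the fit over genes past the filter. Without the filter its log2 fold change was −0.34 (SE 0.0917) and missed the threshold (limma adjusted p = 0.056 over 32812 genes, of which 14.7% were called and 7.08% called lower). Its exact two-sided permutation p was 0.1. Every siDYRK2 value lay below the pseudocount of 0.5 FPKM, which makes the log2 fold change of COL4A3 smaller than the change between its means. No fit without the filter used another pseudocount. The antisense gene MFF-DT overlaps COL4A3 and stood at 0.09 to 0.13 FPKM with siDYRK2 and 0.12 to 0.18 FPKM with scramble siRNA, so reads of the pair may be mixed.

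COL4A4 (ENSG00000081052; chromosome 2, 227002711 to 227164453, minus strand, 48 exons), which encodes the α4 chain, had 0.76, 0.70 and 0.53 FPKM in the siDYRK2 libraries and 0.68, 0.74 and 0.68 FPKM in the scramble libraries. The siDYRK2 libraries spread on both sides of the scramble libraries, and siDYRK2 replicate 3 was the lowest of all. The means were 0.663 ± 0.119 FPKM with siDYRK2 and 0.700 ± 0.0346 FPKM with scramble siRNA (SD, n = 3 each). The log2 fold change was −0.05 with a 95% confidence interval of −0.31 to 0.21 (limma adjusted p = 0.76), so a change of the size seen for COL4A2 lies outside the interval, while changes between its bounds remain possible. The gene RHBDD1 overlaps the end of COL4A4 in RefSeq and stood higher, at 5.79 FPKM with siDYRK2 and 6.22 FPKM with scramble siRNA, without a call (limma adjusted p = 0.23), so reads of the overlap may be mixed. Without siDYRK2 replicate 3 the estimate was 0.036 (limma adjusted p = 0.82).

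COL4A5 (ENSG00000188153; X chromosome, 108439844 to 108697545, plus strand) encodes the α5 chain, the one most often affected in Alport syndrome. It was listed at 0.00, 0.04 and 0.02 FPKM in the siDYRK2 libraries and at 0.03, 0.03 and 0 FPKM in the scramble libraries. COL4A6 (ENSG00000197565; X chromosome, 108155607 to 108439497, minus strand), which encodes the α6 chain, was listed at 0, 0.01 and 0 FPKM with siDYRK2 and at 0.01, 0.00 and 0.01 FPKM with scramble siRNA. Both were at or near 0 in all 6 libraries, and no fold is given. The α3 and α4 chains are known to be secreted in a trimer with α5, so the transcripts for that trimer were not all present at a measurable level. Of the podocyte markers, the cells known for making this trimer, NPHS1 stood at 0.10 to 0.13 FPKM with siDYRK2 and 0.19 to 0.32 FPKM with scramble siRNA, and WT1 did not exceed 0.01 FPKM. The 6 podocyte markers with a row, of 7 listed, summed to 12.66 to 13.48 FPKM with siDYRK2 and 15.15 to 15.71 FPKM with scramble siRNA. Most of that sum was PODXL and SYNPO, the 2 that were tested. Both were called lower, as were 17.9% of all tested genes. PLA2R1, under the filter, went the other way, at 0.31 to 0.40 FPKM with siDYRK2 and 0.24 to 0.27 FPKM with scramble siRNA. Any part of podocyte genes in the COL4A3 values was not tested.

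The chains kept 1 order of level for the 4 that were measurable. In every library COL4A2 stood above COL4A1, COL4A1 above COL4A4, and COL4A4 above COL4A3. The ranges of these neighbours did not overlap within either group. COL4A5 and COL4A6 did not differ beyond their spread. The summed level of the 6 chains was 16.8, 16.2 and 16.4 FPKM in the siDYRK2 libraries and 8.31, 9.25 and 9.05 FPKM in the scramble libraries, which is a 1.86-fold difference between means of 16.5 ± 0.288 FPKM with siDYRK2 and 8.87 ± 0.495 FPKM with scramble siRNA (SD, n = 3 each; exact two-sided permutation p = 0.1, the smallest possible).

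The balance within the first pair also differed. The ratio of COL4A1 to COL4A2 FPKM was 0.589, 0.601 and 0.561 in the siDYRK2 libraries, against 0.363, 0.364 and 0.363 in the scramble libraries. COL4A2 thus exceeded COL4A1 in every library, by less with siDYRK2 than with scramble siRNA, and the groups did not overlap. On the log2 scale with a pseudocount of 0.5 the ratio was −0.73 ± 0.0475 with siDYRK2 and −1.27 ± 0.00729 with scramble siRNA (SD, n = 3 each), a difference of 0.54 (exact two-sided permutation p = 0.1, the smallest possible). COL4A1 made up 34.7% ± 0.569 of the summed FPKM of the 6 chains with siDYRK2 and 23.0% ± 0.120 with scramble siRNA (SD, n = 3 each). The widespread network's trimer is known to contain more α1 than α2 chains, which is the reverse of the order of these transcript levels.

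In the second pair the ratio was lower with siDYRK2. COL4A3 over COL4A4 was 0.421, 0.357 and 0.566 in the siDYRK2 libraries and 0.662, 0.730 and 0.765 in the scramble libraries. The groups did not overlap, although siDYRK2 replicate 3, where COL4A4 was lowest, came nearest to the scramble libraries. On the log2 scale the difference was −0.30 (exact two-sided permutation p = 0.1). This ratio was examined after the values of both genes had been seen, and at these levels 0.01 FPKM, the last digit deposited, is a visible part of each value. Together COL4A1 and COL4A2 exceeded COL4A3 and COL4A4 by 14.6-fold, 16.0-fold and 18.7-fold in the siDYRK2 libraries and by 6.32-fold, 6.20-fold and 6.53-fold in the scramble libraries.

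**Figure D2:**
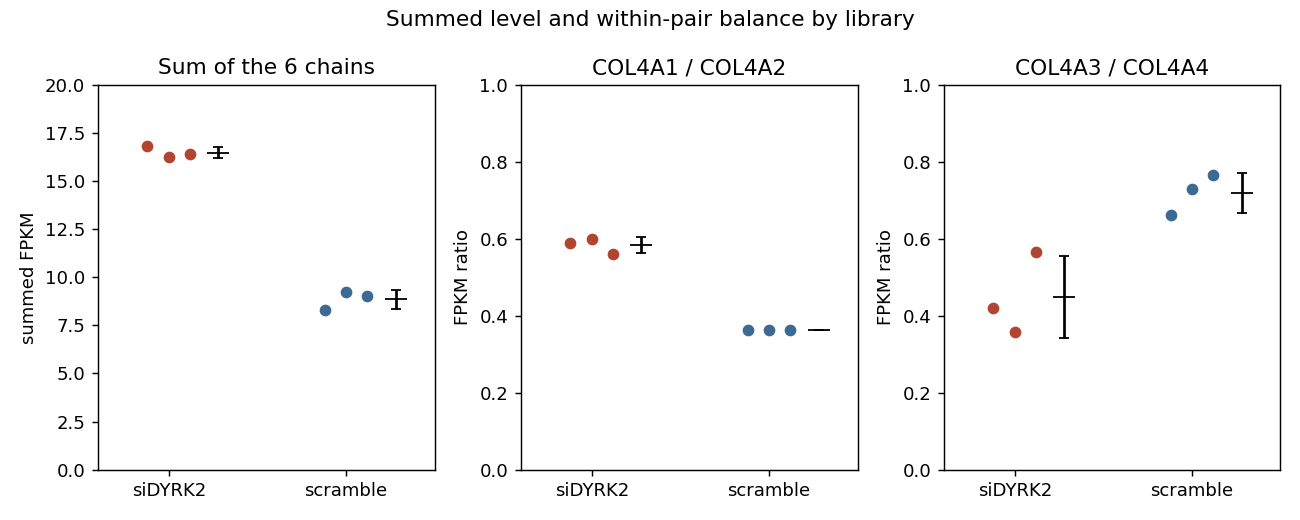
Summed FPKM of the 6 chains and the FPKM ratios COL4A1 over COL4A2 and COL4A3 over COL4A4, by library, with siDYRK2 on the left and scramble on the right; black marks are the mean and SD of 3 libraries. The first ratio is 0.561 to 0.601 with siDYRK2 and 0.363 to 0.364 with scramble siRNA, whereas the second is lower with siDYRK2.

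Genes next to the chains on the chromosome were read from the RefSeq order. At 9856 bases beyond COL4A2 lies RAB20, which had 2.81 ± 0.324 FPKM with siDYRK2 and 2.62 ± 0.0874 FPKM with scramble siRNA (SD, n = 3 each; limma adjusted p = 0.46). At 23728 bases beyond COL4A1 lies LINC03032, at or near 0 FPKM. On chromosome 2, MFF, 10458 bases beyond COL4A3, fell to 19.9 ± 0.275 FPKM with siDYRK2, against 24.7 ± 0.910 FPKM with scramble siRNA (SD, n = 3 each; log2 fold change −0.31, limma adjusted p = 7.2e-04). IRS1, 167539 bases beyond COL4A4, fell to 7.65 ± 0.195 FPKM with siDYRK2, against 12.6 ± 0.435 FPKM (SD, n = 3 each; log2 fold change −0.68, limma adjusted p = 4.0e-05). On the X chromosome, NXT2, as far as 838278 bases beyond COL4A5, rose by a log2 fold change of 0.28 (limma adjusted p = 0.028), which 4 of the 6 fits without a library did not call, and ATG4A, 942 bases beyond COL4A6, did not pass the test (0.15, limma adjusted p = 0.28).

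The genes whose pattern was most like that of a chain were named by the smallest root mean square distance over the 6 libraries between log2(FPKM + 0.5) profiles, each set to 0 at its scramble mean. For COL4A1 they were KLF9 (distance 0.0369), TFRC (0.0491), TGFBI (0.0502), APLP1 (0.0546) and MT1A (0.0902). For COL4A2 they were DUSP1 (0.0290), HRCT1 (0.0385), LOXL2 (0.0401), TRNP1 (0.0421) and TTYH2 (0.0429). LOXL2 is the only one of these that is also in a list of genes linked to type IV collagen or to other matrix. For COL4A4 they were ACBD3, HDGFL3, ENPP4, ZNF594 and ACTR8, at distances of 0.0295 to 0.0350, none of which was called changed.

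**Figure D3:**
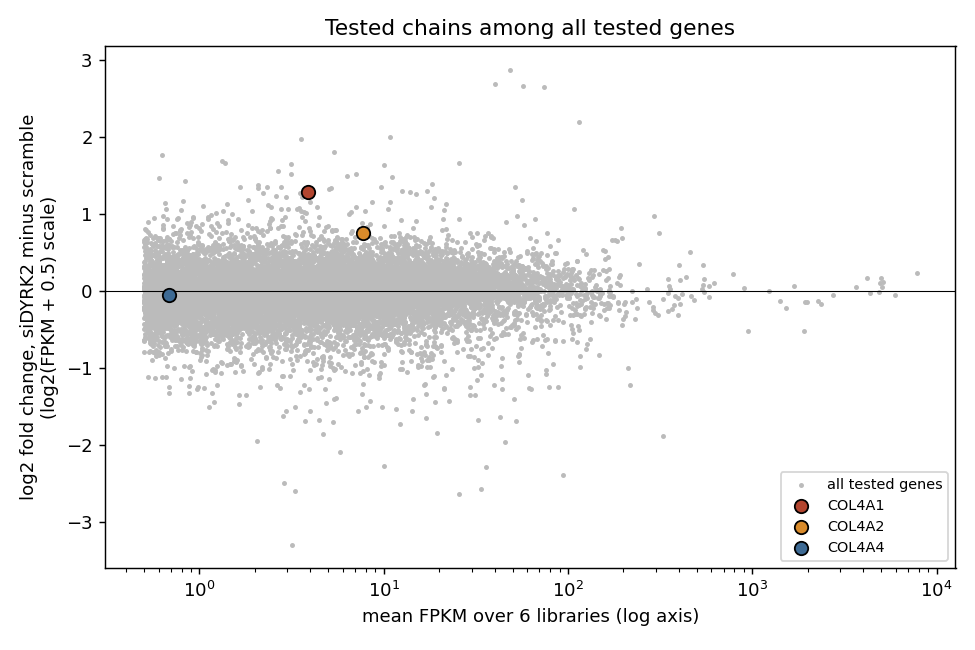
Log2 fold change, siDYRK2 minus scramble, against mean FPKM on a log axis for all 15121 tested genes in grey, with the 3 tested chains enlarged. COL4A1 at 1.29 and COL4A2 at 0.75 lie near the upper edge of the cloud, and COL4A4 at −0.05 lies within it.

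Genes linked to type IV collagen or to other matrix were read from 5 lists ordered by their step. Not every member acts on type IV collagen itself. Before secretion, new chains are hydroxylated, glycosylated and folded in the endoplasmic reticulum and exported in large carriers. Of the 22 genes of this folding and secretion list all were tested and 14 rose (63.6%), 0 fell and 8 were not called. Their median change was 0.30 on the log2 scale, beside 0.01 over all tested genes, of which 20.4% were called higher and 17.9% lower. P4HB, the shared subunit of prolyl 4-hydroxylase, rose to 82.5 ± 0.827 FPKM with siDYRK2, against 52.4 ± 1.03 FPKM (SD, n = 3 each; limma adjusted p = 9.1e-06). Its catalytic partner P4HA1 rose to 38.7 ± 1.07 FPKM with siDYRK2, against 25.7 ± 0.783 FPKM (SD, n = 3 each; limma adjusted p = 4.5e-05). COLGALT1, the galactosyltransferase of hydroxylysine, rose 1.52-fold and P3H4, a partner of the lysyl hydroxylase complex, 1.56-fold. SERPINH1 encodes HSP47, the collagen chaperone without which the type IV network is not laid down in mice. It had 28.7, 27.8 and 29.6 FPKM with siDYRK2 and 20.7, 19.7 and 18.7 FPKM with scramble siRNA, with no overlap (log2 fold change 0.54, limma adjusted p = 1.8e-04). The members concerned with export did not pass, with MIA3, which loads collagen at exit sites, at 10.7 ± 0.752 FPKM with siDYRK2 and 9.57 ± 0.289 FPKM with scramble siRNA (SD, n = 3 each; limma adjusted p = 0.072).

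In the extracellular space the network is cross-linked. Of the 6 cross-linking genes 4 were tested, of which 2 rose and 0 fell, beside 20.4% higher and 17.9% lower over all tested genes. The median change of the 4 was 0.44 on the log2 scale. LOXL2, a lysyl oxidase that acts on type IV collagen, had 46.8, 45.1 and 46.9 FPKM with siDYRK2 and 27.0, 27.1 and 27.5 FPKM with scramble siRNA, again without overlap (log2 fold change 0.76, limma adjusted p = 6.5e-06). LOX rose 1.59-fold (limma adjusted p = 0.0012). PXDN, the peroxidase that forms the sulfilimine bonds between type IV collagen molecules, was listed at 0.08, 0.06 and 0.04 FPKM with siDYRK2 and at 0.02, 0.03 and 0.03 FPKM with scramble siRNA and was not tested. LOXL1, also under the filter and not tested, went the other way. It had 0.49, 0.32 and 0.33 FPKM with siDYRK2 and 0.55, 0.52 and 0.66 FPKM with scramble siRNA.

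The other components of the basement membrane went both ways. Of 22 listed genes 20 had a row and 16 were tested, of which 8 rose (50.0%), 4 fell (25.0%) and 4 were not called. The shares over all tested genes were 20.4% higher and 17.9% lower. The median change of the list was 0.14 on the log2 scale. The chains of the laminin trimer α1β1γ1 all rose, LAMA1 1.39-fold, LAMB1 1.57-fold and LAMC1 1.26-fold, with limma adjusted p of 5.7e-04, 4.1e-04 and 2.3e-04. LAMA1 stood at 5.17 FPKM with siDYRK2 and 3.73 FPKM with scramble siRNA. The more abundant α chain gene LAMA5 was not called (limma adjusted p = 0.37). It stood at 47.5 ± 1.24 FPKM with siDYRK2 and 48.8 ± 0.721 FPKM with scramble siRNA (SD, n = 3 each). FBLN1, the fibulin that binds laminin and nidogen, rose 1.40-fold (limma adjusted p = 5.7e-04). NID1, which links laminin to type IV collagen, stood at 17.7, 16.4 and 15.6 FPKM with siDYRK2 and 10.9, 11.4 and 12.1 FPKM with scramble siRNA (log2 fold change 0.51, limma adjusted p = 6.3e-04). HSPG2, which encodes perlecan, rose 1.40-fold (limma adjusted p = 0.0012). The α3 and β3 chains of the epithelial anchoring laminin fell. LAMA3 stood at 9.91 ± 0.118 FPKM with siDYRK2 and 16.0 ± 0.321 FPKM with scramble siRNA, and LAMB3 at 166 ± 5.33 FPKM with siDYRK2 and 226 ± 6.91 FPKM with scramble siRNA (SD, n = 3 each; limma adjusted p = 1.9e-05 and 1.4e-04). AGRN and NTN4 also fell, with log2 fold changes of −0.27 and −0.52 (limma adjusted p = 0.0012 and 0.0011). SPARC had no row in the table used here.

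Cells bind type IV collagen and other matrix proteins through integrins and discoidin domain receptors, and not every listed receptor binds type IV collagen. Of 11 listed receptor genes 8 were tested, of which 2 rose, 3 fell and 3 were not called. Among all tested genes 20.4% were called higher and 17.9% lower. The median change of the receptor list was 0.00 on the log2 scale. ITGA1 and ITGA2, whose products pair with ITGB1 as collagen receptors, were not called. ITGA1 stood at 0.827 ± 0.0924 FPKM with siDYRK2 and 0.803 ± 0.0404 FPKM with scramble siRNA, and ITGA2 at 5.11 ± 0.222 FPKM with siDYRK2 and 5.19 ± 0.0902 FPKM with scramble siRNA (SD, n = 3 each; limma adjusted p = 0.87 and 0.76). DDR1, a receptor tyrosine kinase activated by collagen, had 7.17, 7.08 and 7.18 FPKM with siDYRK2 and 11.1, 10.96 and 11.6 FPKM with scramble siRNA. It fell with a log2 fold change of −0.62 (limma adjusted p = 4.6e-05). The other discoidin domain receptor gene, DDR2, was under the filter and went the other way. It had 0.53, 0.55 and 0.53 FPKM with siDYRK2 and 0.27, 0.28 and 0.29 FPKM with scramble siRNA. ADGRG6, an adhesion receptor that binds type IV collagen, and ITGA3 fell by 0.21 and 0.10 on the log2 scale (limma adjusted p = 0.0053 and 0.025), and the ITGA3 call was lost in 5 of the 6 fits that left out a library. ITGAV and ITGB1 rose by log2 fold changes of 0.33 and 0.14 (limma adjusted p = 0.0014 and 0.017), and the ITGB1 call was lost without siDYRK2 replicate 1 and without siDYRK2 replicate 2.

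Of the 14 matrix metalloproteinases and inhibitors 11 had a row and 7 were tested, of which 1 rose, 3 fell and 3 were not called. For all tested genes the shares were 20.4% higher and 17.9% lower. The median change of this list was 0.04 on the log2 scale. MMP14, a membrane-bound protease that cleaves pericellular matrix and activates the type IV collagenase MMP2, had 9.32, 9.36 and 10.4 FPKM with siDYRK2, against 25.0, 22.6 and 22.3 FPKM with scramble siRNA. Its groups were far apart (log2 fold change −1.22, limma adjusted p = 1.7e-05). MMP1, an interstitial collagenase, fell to 140 ± 6.17 FPKM with siDYRK2, against 281 ± 9.49 FPKM with scramble siRNA (SD, n = 3 each; limma adjusted p = 7.7e-06). MMP3, which degrades several basement membrane proteins, fell to 0.300 ± 0.0872 FPKM with siDYRK2, against 0.813 ± 0.176 FPKM (SD, n = 3 each; limma adjusted p = 0.0073), and this call held in the 12 alternatives that kept it past the filter. The inhibitor TIMP4 rose 1.52-fold (limma adjusted p = 5.3e-04). The more abundant inhibitors TIMP2 and TIMP1 were not called (limma adjusted p = 0.32 and 0.73). TIMP2 had a mean of 85.8 FPKM with siDYRK2 and 83.4 FPKM with scramble siRNA, and TIMP1 36.3 FPKM with siDYRK2 and 35.4 FPKM with scramble siRNA. MMP9, a type IV collagenase, did not exceed 0.06 FPKM in any library, and MMP2 had no row in the table used here.

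**Figure D4:**
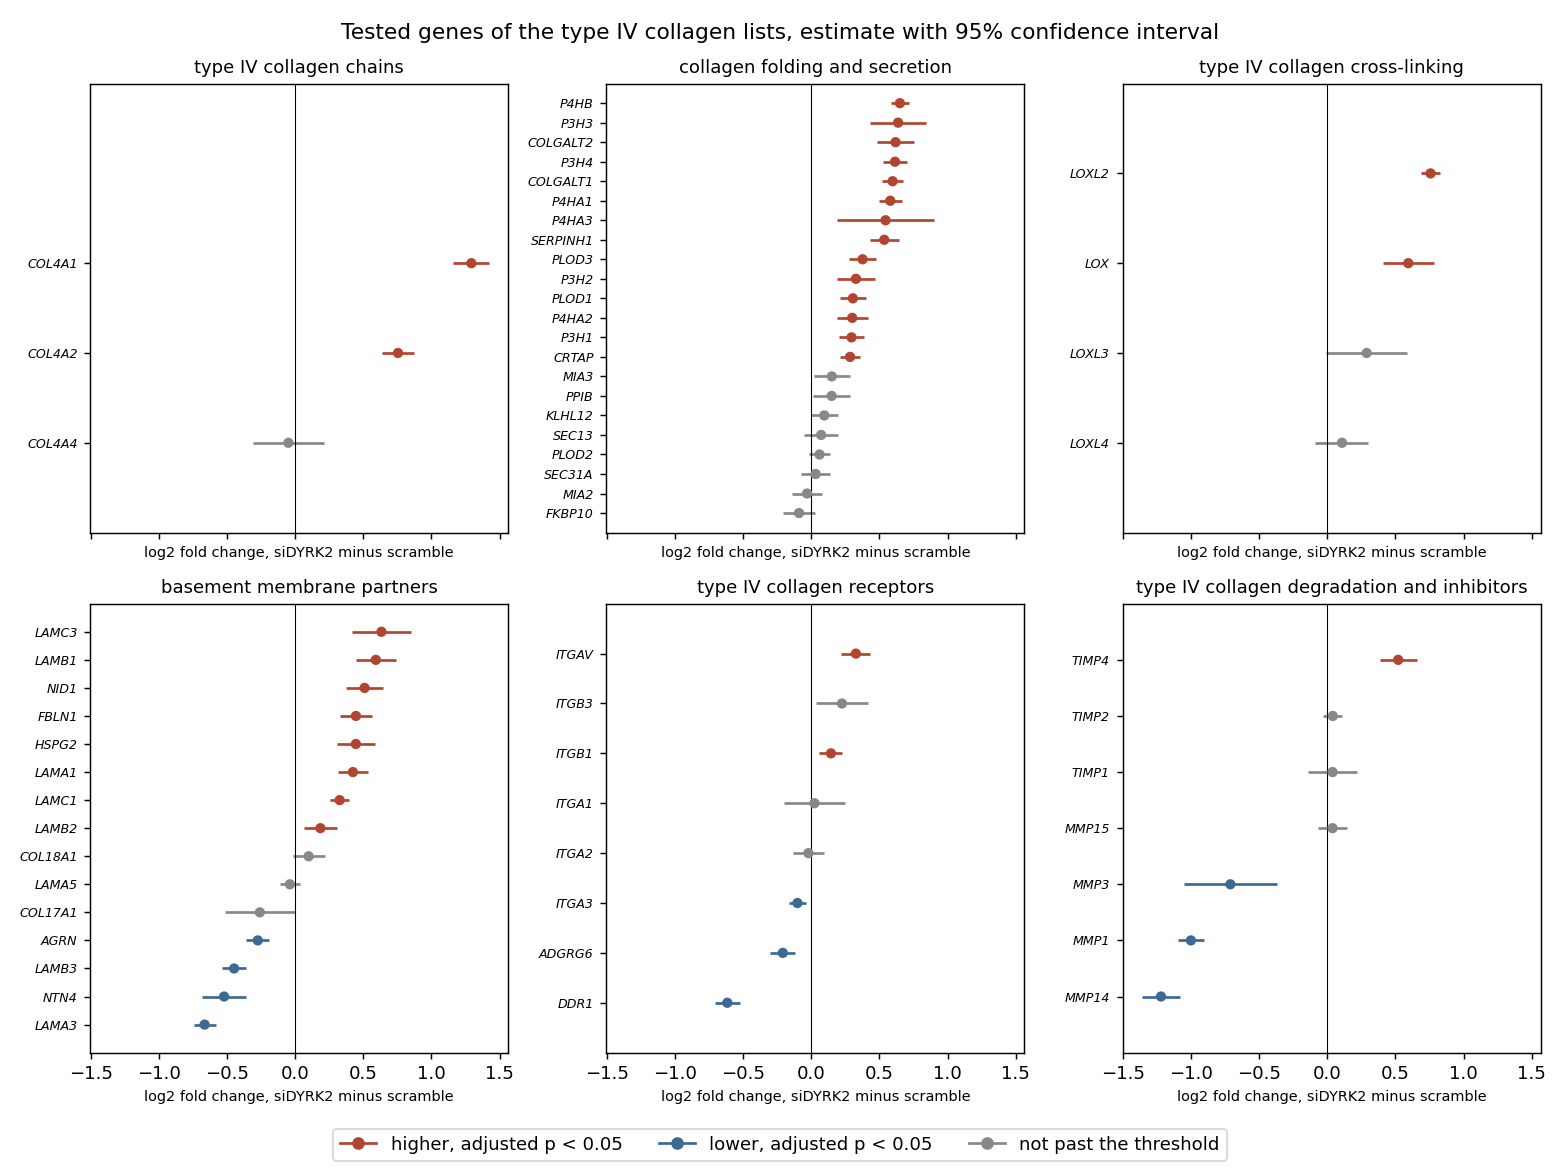
Log2 fold change, siDYRK2 minus scramble, with its 95% confidence interval for the tested genes of the chains and of the 5 lists, with 1 gene not drawn; red marks genes higher and blue genes lower at a limma adjusted p under 0.05, grey the rest. The folding and secretion genes past the threshold all lie to the right of 0, while MMP14, MMP1 and MMP3 lie to the left.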

How the data were processed

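Per the labels' protocols, total RNA was taken with Trizol, treated with DNase I and sequenced by a provider (Illumina). HISAT2, StringTie and GRCh38 are named in the submitters' processing notes, without versions or roles; the annotation, strand use and read filters are not stated. The authors deposited FPKM, rounded to 2 decimals, in 1 column per library, per the file headers. Because FPKM is scaled within each library, a few abundant transcripts can shift the others.

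The fit used limma 3.58.1 (R 4.3.3; mean-variance trend, no block) on log2(FPKM + 0.5) for every gene averaging 0.5 FPKM or more, with Benjamini-Hochberg adjustment over all 15121 genes; a fold is the ratio of the 2 group means in FPKM. Other steps used Python 3.11.15, numpy 2.4.6, scipy 1.17.1, pandas 2.3.3 and matplotlib 3.10.9. The test was tested on simulated data. Whole reads were looked for in 5716 short genes with 1 transcript. At the best of many steps tried for each library, 26.4% to 29.9% of values were whole to a tolerance of 0.1. By chance 20% would be whole at a fixed step, and more at the best of many. For scramble replicate 3 the best step rested on only 307 values. Read numbers could thus not be had, and the depth is unknown.

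Gene spans are from GENCODE release 29, start sites and sequences from RefSeq on GRCh38.p14. The chains, the 5 lists and the marker lists were chosen with earlier results of these data known. Named genes are the chains, DYRK2, fixed partners, up to 4 called members per list and direction with the smallest adjusted p, the 5 nearest profiles of each tested chain, and neighbouring genes with a row. Other genes are named as markers or to complete a step; 1 tested basement membrane gene is counted but not reported by name. Alternatives were other pseudocounts (0.1 and 1), no filter, a filter at 1 FPKM, rescaling by the median of ratios or without mitochondrial genes, no trend, a replicate block and leaving out each library.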

Additional observations from a re-analysis of the deposited data

How the results depend on the processing

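COL4A1 and COL4A2 stayed higher and past the threshold under all 14 alternatives, with log2 fold changes of 1.15 to 1.45 and 0.71 to 0.80 and limma adjusted p of at most 6.1e-04 and 0.0015. COL4A4 was never called (limma adjusted p from 0.55 to 0.90), lay between −0.11 and 0.036 when libraries were left out one at a time, and turned sign only without siDYRK2 replicate 3, at that upper value; the cause was not tested. The receptor list had 1 to 2 genes called higher when libraries were left out one at a time. Of the named genes, the call was lost in 8 of 14 alternatives for ITGA3, in 6 for NXT2 and in 3 for ITGB1. The other counts of calls stayed within 1.5 times their value under these alternatives. Deviations of same-numbered libraries correlated at −0.088 to 0.024, so no pairing by replicate number was visible. With 3 libraries a group this check cannot exclude pairing. With a replicate block COL4A1 had a limma adjusted p of 6.1e-04 and no call on a chain changed, while ITGA3 and NXT2 lost theirs. The difference in the log2 ratio of COL4A1 to COL4A2 was 0.44 to 0.65, and that of COL4A3 to COL4A4, added after seeing the data, −0.55 to −0.19. Rescaling moved the median of all genes by less than 0.1 on the log2 scale. Values under about 0.5 FPKM, which include COL4A3, COL4A5 and COL4A6, are limited by rounding and unknown depth.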
